A study of Mus musculus with 4 samples.

Results

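The genes described here act in mitosis, from entry into division to the separation of the daughter cells, and include the spindle checkpoint. They were chosen by function as a list of 40 genes, of 18193 genes measured on the arrays. Of these, 39 had a probe set of their own, and Ccnb1, which encodes cyclin B1, was not analysed here for its level. RNA of 4 immortalised mouse melanocyte lines was hybridised to Affymetrix arrays, 1 array per line. All lines came from the skin of C57BL/6J pups aged 3 days and were grown to the same confluency in medium with the phorbol ester TPA at 200 nM. Line 9v was WT and line 10d carried bcat*, a stable, active β-catenin expressed in the melanocyte lineage, and both were male by their labels. Lines 13d and 14d were female by their labels, while the study's methods describe male mice. By the labels line 13d is bcat* and line 14d is WT, whereas by the study's methods line 13d is WT and line 14d is bcat*. The lines are therefore described by name. Each genotype thus has 2 lines under either source and each line 1 array, so that genotype cannot be told apart from the history or growth state of a line. Each labelled sex holds 1 line of each genotype under either source.

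A cell entering mitosis switches on the kinase Cdk1 through cyclins A and B and the phosphatases Cdc25. Polo-like and Aurora kinases then build the spindle, and kinetochores on the centromeres attach chromosomes to it. The spindle checkpoint holds back the anaphase-promoting complex, a ubiquitin ligase, until every chromosome is attached. Most of these genes are transcribed late in the cell cycle, and their RNA is low in cells that do not divide. In RNA from a whole culture, fewer cells in G2 and mitosis and less RNA per such cell cannot be told apart. Melanocytes in culture divide under phorbol ester, and β-catenin is the transcriptional arm of Wnt signalling, which acts in this lineage.

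The promoters of several members are shown first because genes of this group are known to share the cell cycle genes homology region (CHR), read by the MuvB complexes, and CCAAT boxes, read by NF-Y. The windows come from RefSeq (GRCm38.p6) and hold 250 bases before and 50 after a transcription start, of 33 members with Ccnb1 among them. No window was given for Ccna2, Cdc25c, Aurkb, Incenp, Spc24, Tpx2 and Foxm1. Ccnb2, Ube2c and Mad2l1 are the members with a window that were lower by 2-fold or more in line 10d against line 9v. Cenpf had the widest range over the 4 lines and Pttg1 the narrowest. Capitals mark TTTGAA or TTCGAA (CHR) and CCAAT, on either strand, and the sequences run 5′ to 3′ along the gene.
Ccnb2, chr9:70421505-70421804, minus strand: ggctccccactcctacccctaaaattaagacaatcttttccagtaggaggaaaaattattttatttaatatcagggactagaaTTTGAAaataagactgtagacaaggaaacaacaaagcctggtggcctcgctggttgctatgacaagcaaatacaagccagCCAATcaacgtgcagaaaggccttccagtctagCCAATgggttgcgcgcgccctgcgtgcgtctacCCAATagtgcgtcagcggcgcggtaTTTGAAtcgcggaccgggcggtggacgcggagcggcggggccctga
Ube2c, chr2:164769679-164769978, plus strand: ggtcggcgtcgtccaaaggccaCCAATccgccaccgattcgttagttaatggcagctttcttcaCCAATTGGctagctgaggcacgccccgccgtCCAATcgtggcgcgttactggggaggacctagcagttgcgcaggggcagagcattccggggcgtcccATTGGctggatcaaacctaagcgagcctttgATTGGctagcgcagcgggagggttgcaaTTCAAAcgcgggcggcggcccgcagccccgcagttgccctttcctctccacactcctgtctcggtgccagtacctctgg
Mad2l1, chr6:66534971-66535270, plus strand: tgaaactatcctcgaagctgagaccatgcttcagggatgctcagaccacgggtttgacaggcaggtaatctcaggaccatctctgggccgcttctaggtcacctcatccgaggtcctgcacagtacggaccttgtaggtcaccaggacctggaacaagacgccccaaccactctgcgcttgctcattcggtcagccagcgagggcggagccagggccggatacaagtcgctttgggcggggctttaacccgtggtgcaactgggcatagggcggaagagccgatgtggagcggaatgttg
Cenpf, chr1:189688037-189688336, minus strand: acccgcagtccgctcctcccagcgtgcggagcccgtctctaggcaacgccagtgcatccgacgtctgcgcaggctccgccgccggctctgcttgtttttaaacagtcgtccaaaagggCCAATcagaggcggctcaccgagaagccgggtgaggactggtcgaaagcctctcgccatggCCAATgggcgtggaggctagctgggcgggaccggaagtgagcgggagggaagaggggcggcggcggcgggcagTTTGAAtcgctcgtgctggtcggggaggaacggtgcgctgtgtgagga
Pttg1, chr11:43425932-43426231, minus strand: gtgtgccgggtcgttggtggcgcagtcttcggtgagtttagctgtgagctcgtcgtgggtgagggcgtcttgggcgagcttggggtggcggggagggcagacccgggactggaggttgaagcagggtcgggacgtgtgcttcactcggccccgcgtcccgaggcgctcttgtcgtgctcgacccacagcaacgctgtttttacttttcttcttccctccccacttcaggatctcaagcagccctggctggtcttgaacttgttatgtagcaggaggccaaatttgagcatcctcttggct

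A CHR was found in the windows of 24 of 33 members (72.7%) and of 21.7% of the 27025 genes in the promoter table. A CCAAT box was found for 25 members (75.8%) and for 41.1% of all genes, and both motifs together for 22 members (66.7%) and 8.61% of all genes. A CHR began within 50 bases of the start in 23 members and in 6.12% of all genes, a distance chosen after the positions were seen. E2F motifs, searched as TTCCCGC or TTGGCGC or TTCGCGC or TTGCCGC, were found for 5 members (15.2%) and for 10.9% of all genes. Matches were counted on both strands and may overlap, and a gene with several windows was counted where any of them held the motif. In Ccnb2 a CHR began 5 bases after the start, behind 3 CCAAT boxes that began at -87, -54 and -21. In Cenpf the CHR began 3 bases after the start. The windows of Mad2l1 and Pttg1 held neither motif. The matches are a description of the letters and not of binding.

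The members were high in line 13d and low in lines 10d and 14d, with line 9v between. Values are deposited intensities on a linear scale, the brightest probe set over the 4 lines, on the log2 scale, stood for the gene, and an intensity of 32 was taken as the detection level. All 39 measured members were detected in every line. Relative to the mean of the 4 lines, the median member had a log2 value of 0.19 in line 9v, -0.34 in line 10d, 0.51 in line 13d and -0.36 in line 14d. Over the 9415 genes detected in at least 1 line, these medians lay between -0.01 and 0.00. Line 13d was above the 4-line mean in all 39 members, beside 48.2% of all detected genes. The median fold between the highest and the lowest line was 2.24 for the members and 1.79 for all detected genes.

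**Figure D1:**
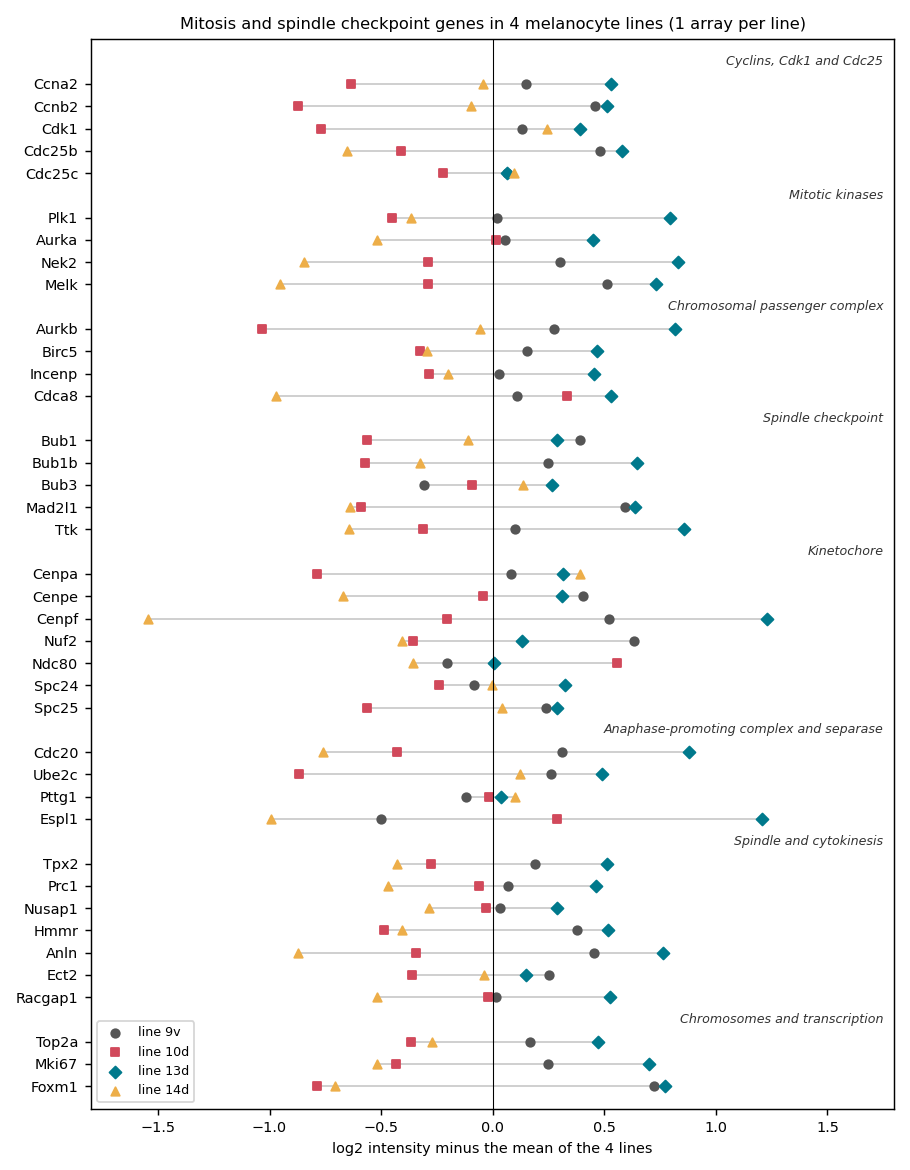
Level of each of the 39 measured genes in each line, as the log2 intensity minus the mean of the 4 lines (x axis), with genes grouped by role (y axis). Each point is 1 array and has no error bar. Line 13d lies to the right of 0 in all 39 genes, beside 48.2% of all detected genes. Line 10d or line 14d is the lowest in 37 of the 39.

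Of the 39 members, 18 were lowest in line 10d and 19 in line 14d, where 24.7% and 25.9% of all detected genes were lowest. The other members, Bub3 and Pttg1, were lowest in line 9v, as were 19.8% of all genes, and none was lowest in line 13d, as were 20.4%. The highest value was in line 13d for 31 members and for 21.3% of all genes. It was in line 9v for Bub1, Cenpe, Nuf2 and Ect2 (19.1% of all genes), in line 14d for Cdc25c, Cenpa and Pttg1 (29.5%) and in line 10d for Ndc80 (28.8%). Lines 10d and 14d were within 1.1-fold of each other in 10 members, and the order of such close values has no replicate check. Each array was also centred on its median, which raised line 10d by 0.19 against line 9v on the log2 scale. After this centring 11 members were lowest in line 10d and 25 in line 14d. The array medians were intensities of 7 in line 10d and 8 in line 9v, both below the detection level. The upper quartiles were 236 and 233. Centring moved the median log2 difference of line 10d over 9v, over all genes detected in the pair, from 0.00 to 0.19. Counts after median centring carry this shift.

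Line 10d (bcat*) was compared with line 9v (WT), the pair whose genotypes all sources give alike. With 1 array for each, a difference has no replicate check and no test was made. The members were lower in line 10d in 34 of 39 cases, with a median ratio of 0.653 (log2 difference -0.61). After median centring 29 of 39 were lower, and Aurka, Spc24, Prc1, Nusap1 and Racgap1, with ratios from 0.897 to 0.974 as deposited, turned to between 0.04 and 0.16 above 0 on the log2 scale. Over the 9131 genes detected in this pair the median log2 difference was 0.00, and 49.0% were lower in line 10d. At least 2-fold lower were 5 members (12.8%), namely Foxm1, Ccnb2, Aurkb, Mad2l1 and Ube2c, beside 10.0% of all genes. No member was at least 2-fold higher, beside 7.85% of all genes. The share beyond 2-fold was thus near that of all genes, and most members were lower by less than 2-fold. After median centring, Foxm1, Ccnb2 and Aurkb were at least 2-fold lower, 3 of 39 beside 7.74% of all genes. The nearest members to the threshold were Ube2c inside it, with a ratio of 0.457, and Nuf2 outside it, with 0.503.

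Lines 13d and 14d share no array with that pair. In line 13d the members were higher than in line 14d in 36 of 39 cases, with a median ratio of 1.89 (log2 difference 0.92). Over all genes detected in this pair, 48.4% were higher in line 13d, and the median log2 difference was -0.01. At least 2-fold higher were 14 members (35.9%), beside 11.0% of all 9213 genes detected in this pair, and none was at least 2-fold lower, beside 8.73%. Nearest to the threshold were Racgap1 inside it, with a ratio of 2.07, and Cenpe outside it, with 1.98. Lower in line 10d than in 9v and higher in line 13d than in 14d were 32 of 39 members (27 after median centring) and 1905 of 8929 genes detected in both pairs. The reverse held for Pttg1. By the labels, line 13d over line 14d is bcat* over WT and thus opposite in sign to 10d over 9v, while by the study's methods line 14d over line 13d is bcat* over WT and the 2 pairs have the same sign.

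**Figure D2:**
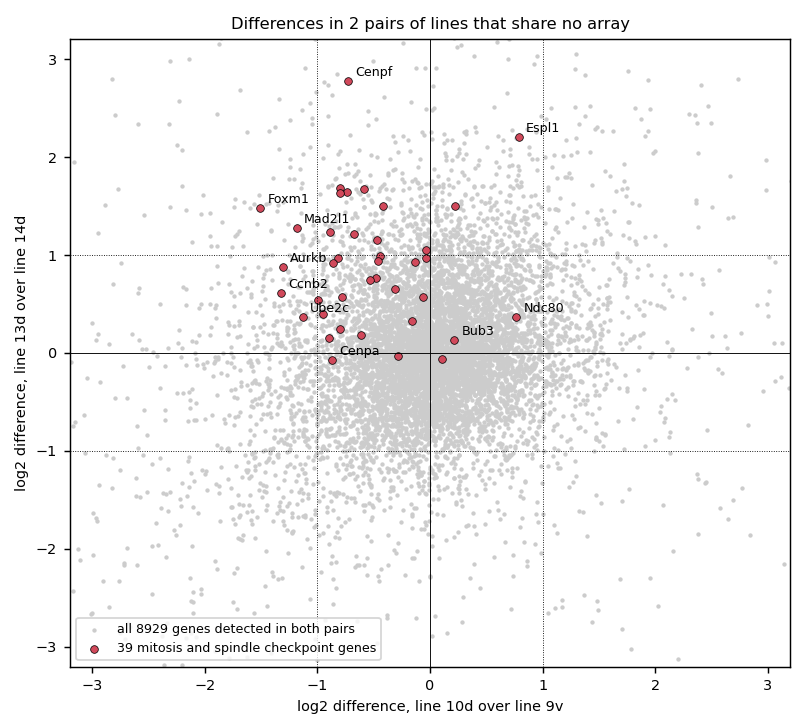
Log2 difference of line 10d over line 9v (x axis) and of line 13d over line 14d (y axis), 1 array per line, for genes detected in both pairs (grey, of which 217 lie outside the axes) and for the 39 members (red). Dotted lines mark 2-fold. Most members, 32 of 39, lie in the upper left.

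Under the reading of the study's methods (10d and 14d bcat*, 9v and 13d WT), both bcat* lines were below both WT lines in 30 of 39 members, beside 14.1% of all detected genes, and above them in none, beside 16.1%. Under the reading of the labels (10d and 13d bcat*), both bcat* lines were below both WT lines in 0 members, beside 19.5%, and above them in 3, Cdca8, Ndc80 and Espl1, beside 18.4%. These counts describe the order of the lines and do not show which reading is right. In a limma fit over 9415 genes, 0 genes (0%) and 0 members passed an adjusted p of 0.05 under either reading. At an unadjusted p under 0.05, limma gave 11 members, all lower in bcat*, beside 3.28% of all genes under the methods' reading, and 1 member, Espl1, beside 7.83% under the labels'. Leaving out 1 line leaves a lone line of a genotype, which is assumed to vary like the other. The members' median log2 difference under the methods' reading was -0.70 with all lines. It was -0.85 without line 9v, -0.77 without line 10d, -0.50 without line 13d and -0.83 without line 14d. Over all genes these medians lay between 0.00 and 0.02. With labelled sex as a block, which leaves 1 residual degree of freedom before moderation, limma again called 0 genes and gave 2 members at an unadjusted p under 0.05 under the methods' reading, beside 2.36% of all genes, and 0 members, beside 7.49%, under the labels'. For Foxm1, limma estimated a log2 difference of -1.49 with a standard error of 0.24 under the methods' reading (unadjusted p = 0.0044, adjusted p = 0.984) and of -0.01 with a standard error of 0.79 under the labels' (adjusted p = 0.996). For Mad2l1 the limma estimates were -1.23 with a standard error of 0.24 (adjusted p = 0.984) and 0.05 with a standard error of 0.67 (adjusted p = 0.987). The lowest adjusted p of a member was 0.984 under the first reading and 0.596 under the second, by limma.

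Foxm1 encodes a transcription factor that drives late cell cycle genes. It had intensities of 831 in line 9v, 292 in line 10d, 862 in line 13d and 309 in line 14d. Lines 9v and 13d were thus nearly equal, as were lines 10d and 14d, and the sets did not overlap. The ratio of line 10d to 9v was 0.351, the lowest of the members, and that of line 13d to 14d was 2.79. A second, dim probe set read 56, 27, 65 and 26 in the same order of lines, with lines 10d and 14d under the detection level. Mki67, the proliferation marker Ki-67, had 6057, 3782, 8293 and 3565, again with lines 10d and 14d lowest. Top2a, the topoisomerase that untangles sister chromatids, had 5478, 3779, 6764 and 4033.

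Of the genes that switch on Cdk1, all 5 measured were lower in line 10d than in 9v. Ccnb2, cyclin B2, had an intensity of 6489 in line 9v, 2585 in line 10d, 6742 in line 13d and 4418 in line 14d, a ratio of 0.398 for 10d over 9v. Line 10d stood apart, while line 14d lay between it and the others. Cdk1 itself had 4622, 2475, 5539 and 4996 in the same order, so that line 14d was above line 9v. Ccna2, cyclin A2, had 3892, 2257, 5054 and 3398, with line 10d again the lowest. Cdc25b, a phosphatase that activates Cdk1, had 540, 291, 577 and 246, and here lines 10d and 14d were both low. Its relative Cdc25c ranged from 725 to 905, the smallest range of this group, and its brightest probe set is of a kind that may cross-hybridise. The other detected probe set of Cdc25c varied more, with 385 in line 9v, 262 in line 10d, 521 in line 13d and 341 in line 14d.

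The mitotic kinases Nek2, Melk, Plk1 and Aurka each differed more between lines 13d and 14d than between lines 10d and 9v. The kinases Cdk1, Aurkb and Bub1 did the reverse. Over all members the median log2 differences were 0.92 for 13d over 14d and -0.61 for 10d over 9v. Nek2, a kinase of centrosome separation, had an intensity of 1922 in line 9v, 1277 in line 10d, 2773 in line 13d and 868 in line 14d. Melk, a kinase of dividing cells, had 1489, 855, 1735 and 539, with ratios of 0.574 for 10d over 9v and 3.22 for 13d over 14d. In both genes line 14d was the lowest. Plk1, polo-like kinase 1, had 1309, 944, 2234 and 1002, with line 13d standing apart from the others. Aurka, the Aurora kinase of centrosomes and spindle poles, had 1442, 1404, 1894 and 968, so that lines 9v and 10d hardly differed (ratio 0.974).

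The chromosomal passenger complex corrects faulty attachments and consists of the kinase Aurkb, the scaffold Incenp and the subunits Birc5 (survivin) and Cdca8 (borealin). Its genes did not follow one pattern. Aurkb had an intensity of 1847 in line 9v, 745 in line 10d, 2683 in line 13d and 1464 in line 14d, and its other probe set had 1465, 431, 1415 and 784. The ratio of 10d to 9v was 0.403 and 0.294, respectively, and line 10d was the lowest in both. Cdca8 had 2328, 2717, 3111 and 1101, so that line 10d was above line 9v and line 14d stood apart, and its 3 detected probe sets shared this order of 14d lowest. Birc5 had 5346, 3838, 6660 and 3921, and Incenp 3039, 2450, 4084 and 2599. In both, lines 10d and 14d were close and below the others.

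Among the 5 spindle checkpoint genes, Mad2l1, Bub1, Bub1b and Ttk were lower in line 10d than in 9v and Bub3 was not. Mad2l1, the protein that sequesters Cdc20, had an intensity of 6105 in line 9v, 2690 in line 10d, 6311 in line 13d and 2606 in line 14d. As for Foxm1, lines 9v and 13d were close and high and lines 10d and 14d close and low, with ratios of 0.441 for 10d over 9v and 2.42 for 13d over 14d. Bub1b, the BubR1 kinase of the checkpoint complex, had 750, 425, 988 and 504, and the kinase Bub1 had 2937, 1516, 2736 and 2074. Ttk, the kinase Mps1 that starts the checkpoint, had 409, 307, 691 and 244, with a ratio of 2.83 for 13d over 14d. Bub3, which binds Bub1 and BubR1 and also serves in interphase, had 6959, 8082, 10362 and 9453. It was lowest in line 9v, and its probe sets did not go the same way between lines 13d and 14d.

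The kinetochore genes held the widest difference of all members. Cenpf, a large kinetochore protein that accumulates in G2, had an intensity of 2180 in line 9v, 1316 in line 10d, 3558 in line 13d and 521 in line 14d. Line 13d was thus 6.83-fold above line 14d, while line 10d had a ratio of 0.604 to line 9v. Cenpe, a kinesin of the kinetochore, had 1503, 1104, 1411 and 713, with line 14d the lowest. Cenpa, the histone H3 variant of centromeres, had 4529, 2478, 5315 and 5602, so that line 14d was the highest and line 10d alone was low. The Ndc80 complex binds spindle microtubules and is made of Ndc80, Nuf2, Spc24 and Spc25, and its genes did not share one order of lines. Nuf2 had 6432, 3233, 4541 and 3127, with a ratio of 0.503 for 10d over 9v. Ndc80 had 660, 1121, 766 and 594, a ratio of 1.70, and was the only member highest in line 10d. Spc25 had 3681, 2111, 3811 and 3213, and Spc24 ranged from 444 to 655. All 4 subunits have 1 detected probe set each.

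Of the genes acting through the anaphase-promoting complex, Ube2c, its ubiquitin-conjugating enzyme, had an intensity of 6588 in line 9v, 3014 in line 10d, 7715 in line 13d and 5983 in line 14d. Line 10d alone was low, with a ratio of 0.457 to line 9v. Cdc20, its activator and the target of the checkpoint, had 8368, 5026, 12427 and 3987, and its 3 detected probe sets all had this order of lines. Pttg1, securin, ranged from 5611 to 6541, a fold of 1.17 and the smallest range of the members. Espl1, the separase that securin inhibits and that cleaves cohesin, had 180, 311, 589 and 128. It was higher in line 10d than in 9v (ratio 1.73) and 4.60-fold higher in line 13d than in 14d, while Pttg1 differed little between lines. The other detected probe set of Pttg1 had 2739 in line 9v, 2625 in lines 10d and 13d and 3044 in line 14d, another order of lines.

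All 7 genes of the spindle and of cytokinesis were lower in line 10d than in 9v, except for Prc1, Nusap1 and Racgap1 after median centring, and all were higher in line 13d than in line 14d. Anln, the contractile ring protein anillin, had an intensity of 11905 in line 9v, 6850 in line 10d, 14718 in line 13d and 4738 in line 14d. Hmmr, a spindle protein, had 1831, 1007, 2016 and 1064, and its 4 detected probe sets had ratios from 0.487 to 0.584 for 10d over 9v. In both genes lines 10d and 14d were the low ones. Tpx2, which activates Aurora A on the spindle, had 1688, 1222, 2110 and 1097, but a dimmer probe set had 284, 326, 566 and 309, with line 10d slightly above line 9v. Ect2, the activator of RhoA at the cleavage furrow, had 2522, 1647, 2349 and 2065. The remaining genes differed little between lines 10d and 9v, with ratios of 0.913 for Prc1, which bundles midzone microtubules, 0.957 for Nusap1, a spindle microtubule protein, and 0.974 for Racgap1, the partner of Ect2. Their ratios of line 13d to line 14d were 1.91, 1.49 and 2.07. A further detected probe set had a ratio of line 10d to 9v of 0.858 for Prc1 and 0.835 for Racgap1.

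More than 1 detected probe set was available for 18 members in each pair. Between lines 10d and 9v, the probe sets of 16 of them went the same way, and Pttg1 and Tpx2 were the exceptions. Between lines 13d and 14d this also held for 16, and Cdc25c and Bub3 were the exceptions. The brightest probe set of 19 members carries a suffix (10 _a, 5 _s and 4 _x) that marks probes shared between transcripts or genes, among them Aurkb, Cdc20, Cdc25c and Incenp, which carry _x. Without such probe sets 27 members were left, of which 5 were lower by 2-fold or more in line 10d against 9v, beside 10.4% of all genes, and 13 at least 2-fold higher in line 13d than in 14d, beside 11.8%. Those 5 included Nek2 and not Aurkb, whose probe sets all carry a suffix.

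**Figure D3:**
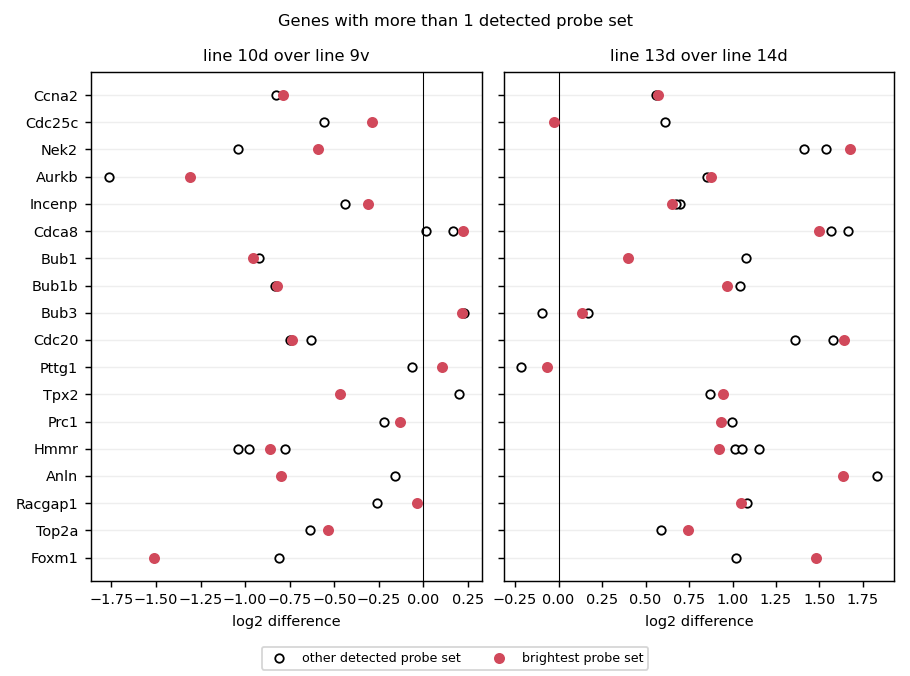
Log2 difference of line 10d over line 9v (left) and of line 13d over line 14d (right) for each detected probe set of the 18 members with more than 1, with values under an intensity of 32 raised to 32. The brightest probe set (red) is the one used for the gene. In each pair 16 of the 18 genes have all points on one side of 0.

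Other genes of mitosis are given from lists of related function, read beside the shares of all genes given above. All 10 detected mitotic kinesins, the motors that build the spindle, were lower in line 10d than in 9v (8 after median centring), with a median log2 difference of -0.51 and none beyond 2-fold. All 10 were higher in line 13d than in 14d, with a median of 1.08 and 6 of them at least 2-fold. Kif2c, which removes tubulin at centromeres, had an intensity of 2315 in line 9v, 1224 in line 10d, 2149 in line 13d and 779 in line 14d, and Kif23, a motor of the midzone, had 1518, 882, 1983 and 864. Of other spindle and centrosome genes, 19 of 21 were lower in line 10d (median -0.49), and Aspm, Ckap2 and Depdc1b at least 2-fold. Of 22, 21 were higher in line 13d than in 14d, and Aspm, Stil, Cdca3, Depdc1b and Troap at least 2-fold. Depdc1b had 416, 112, 319 and 59, and Ckap2, a spindle protein, had 2321, 667, 3110 and 2502, so that line 14d was among the low lines in the first and not in the second.

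Kinetochore and checkpoint genes outside the members were less uniform. Of 29 detected, 20 were lower in line 10d than in 9v, Cenph, Cenpw and Ska3 at least 2-fold, and Cenpu and Zw10 were at least 2-fold higher (median -0.25). Of 30, 27 were higher in line 13d than in 14d, 6 at least 2-fold. Cenpu had an intensity of 72, 237, 205 and 54 in lines 9v, 10d, 13d and 14d, the reverse of most members between lines 9v and 10d. Ska3, which couples kinetochores to microtubules, had 142, 55, 117 and 93. Of 16 condensin and cohesin genes, 0 were beyond 2-fold in line 10d over 9v (median -0.10, and 0.09 after median centring), and Smc2, Ncapg2 and Ncapd2 were at least 2-fold higher in line 13d than in 14d. The condensin gene Ncapd2 had 1608, 880, 2296 and 698, and Ncaph 2879, 1454, 3249 and 1999.

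The subunits of the anaphase-promoting complex were listed together with Fzr1, Fbxo5 and Ube2s, which are not subunits. The RNA of the subunits is known to vary less over the cell cycle. The 16 genes of this list had median log2 differences of -0.22 for 10d over 9v and 0.05 for 13d over 14d. Of these, Anapc4 and Fzr1 were at least 2-fold lower in line 10d, and Anapc16 was at least 2-fold higher. Fzr1, the Cdh1 activator that keeps the complex active in G1, had an intensity of 451 in line 9v, 153 in line 10d, 355 in line 13d and 342 in line 14d. The 20 detected regulators of these genes (MuvB subunits, Myb, E2F and NF-Y) had medians of 0.00 and 0.31. Rb1, the retinoblastoma protein, had 1701, 551, 914 and 1149, and its relative Rbl1 had 2259, 1232, 2130 and 1730. Genes acting on Cdk1 or against it had medians of 0.03 and -0.30 over 14 genes, and none was highest in line 13d. This mixed list holds inhibitors and phosphatases as well as Mastl, Ensa and Arpp19, which restrain the phosphatase PP2A-B55 and so favour mitosis. The phosphatase gene Cdc14b had 979, 62, 117 and 354, and Gadd45a, a stress gene, had 312, 599, 267 and 235. Cdkn1a, the inhibitor p21, named after its values were seen, had 5399, 3612, 3093 and 7186, lowest in line 13d and highest in line 14d.

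For genes of S phase, line 14d lay nearer to line 9v than to line 10d. Their medians relative to the 4-line mean were -0.10 in line 9v, -0.41 in line 10d, 0.47 in line 13d and -0.07 in line 14d, over 25 genes. Lines 13d and 10d were thus the extremes, and line 14d was close to line 9v, whereas for the mitotic genes lines 10d and 14d were both low. In line 10d, 14 of these genes were the lowest of the 4 lines, beside 24.7% of all genes. In line 14d it was 7, beside 25.9%, and thus near the share of all genes. Mcm2, of the replicative helicase, had an intensity of 2658 in line 9v, 837 in line 10d, 2770 in line 13d and 1608 in line 14d, and the DNA ligase Lig1 had 1167, 310, 1253 and 1329. The difference between the lists was not tested.

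**Figure D4:**
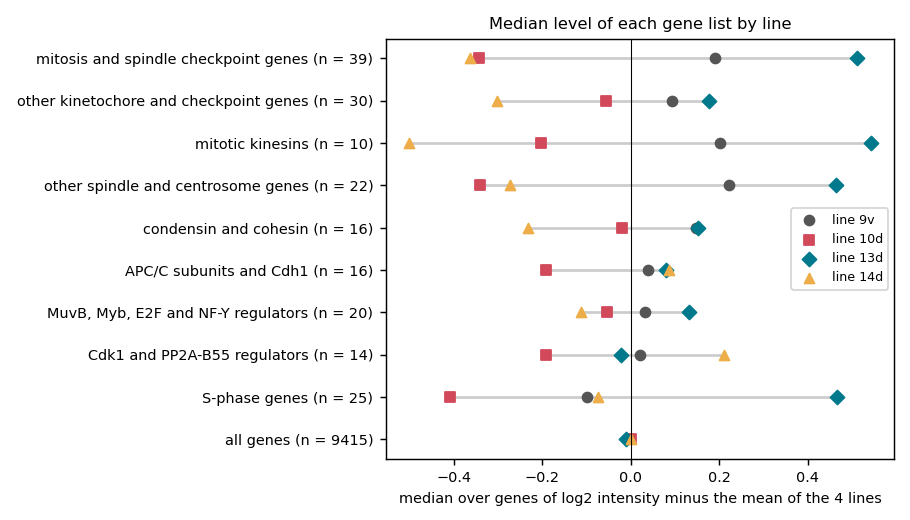
Median over the detected genes of each list (y axis, with the number of genes) of the log2 intensity minus the mean of the 4 lines (x axis), for each line. Mitosis genes spread from -0.36 in line 14d to 0.51 in line 13d, while the medians over all genes lie between -0.01 and 0.00.

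The arrays had medians of 7 in line 10d and 8 in the other lines, upper quartiles from 227 to 236 and RNA integrity numbers from 9.7 to 9.9. The share of probe sets at or above the detection level was 35.8% to 36.1%. All 10 melanocyte markers were detected in every line, Tyr, Dct and Pmel among them, with summed intensities from 282113 to 307208. Of 7 fibroblast markers 1, Col1a2, was detected, in lines 9v and 10d, with Col3a1 and Dcn at 8 or below in every line, and summed intensities ranged from 71 to 232. Of 6 keratinocyte markers Krt10 was detected, with Krt5 and Krt14 at 11 or below. Of 4 leukocyte markers 1 was detected, of 4 endothelial markers none, and of 3 Schwann cell markers Cdh19, from 4906 to 8492, and in lines 9v and 10d Pmp2. The melanocyte sums were 287426 in line 9v, 307208 in line 10d, 282113 in line 13d and 295227 in line 14d, and thus slightly lower in the lines where the members were high. Their part in the results was not tested.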

How the data were processed

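Array intensities of 4 lines were used, 1 array each, for 45037 probe sets. Per the labels, the authors processed the arrays with GCRMA, which corrects background, normalises by quantiles and summarises probes, and deposited intensities, which are whole numbers on a linear scale. Their log2 was taken here. Of the probe sets, 34945 were listed with 1 gene symbol, 932 with several and 9160 with none listed here. Each of 18193 genes took its probe set with the highest mean of log2 intensities. Named were all members, up to 2 genes of each other list with the largest difference between lines 10d and 9v, and, chosen after their values were seen, those of counts of 5 or fewer.

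Intensities under 32 (log2 of 5) were raised to it, a gene was kept where a line of the comparison reached it, and pairs were read at 2-fold without a test. limma 3.58.1 (R 4.3.3) compared 2 lines with 2 under each reading of the genotypes, with Benjamini-Hochberg adjustment. For limma, low values were not raised, and genes that reached 32 in at least 1 line were kept. p-values then measure only the spread between these lines. Counts and fits were run on simulated data with large known changes and less noise than between these lines, which checks the code only. Power and error rates in these data were not tested. Python 3.11.15, NumPy 2.4.6 and pandas 2.3.3 were used. Promoters came from RefSeq (GRCm38.p6). The number of arrays limits the precision. The members and lists were chosen with earlier results of these data known. Alternatives were median centring, quantile normalisation, other detection levels and thresholds, other ways to choose probe sets, leaving out each line and, added after seeing the data, labelled sex as a block.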

Additional observations from a re-analysis of the deposited data

Results flagged for a closer look

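The members Foxm1 and Mad2l1, 2 of 39, were at least 2-fold apart in both pairs, with line 10d below line 9v in the pair labelled male and line 13d above line 14d in the pair labelled female. By the labels both differences are bcat* over WT and they are opposite. By the study's methods line 14d is the bcat* line of the second pair, and both bcat* lines are then lower. The difference between the pairs was not tested, and 113 of 8929 genes had the same combination of directions and sizes. After averaging probe sets, Foxm1 was beyond 2-fold in neither pair. With median centring, Mad2l1 was no longer 2-fold lower in line 10d than in 9v.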

How the results depend on the processing

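The lines share no replicate numbers, but each labelled sex holds 1 line of each genotype. With labelled sex as a block, a choice made after seeing the data, limma called 0 genes under both readings, with 705 at an unadjusted p under 0.05 under the labels' reading and 222 under the methods'. No member beyond 2-fold changed direction with another scaling or choice of probe sets, and 283 of 288 member differences recomputed under these settings stayed within 1.5-fold. Small differences turned sign for Aurka, Spc24, Prc1, Nusap1 and Racgap1 in line 10d over 9v with median centring, for Cdc25c in line 13d over 14d after averaging probe sets (0.29) and for Bub3 without suffixed probe sets (-0.10). Moves beyond 1.5-fold came when all probe sets of a gene were averaged, for Cenpa and Foxm1 in line 10d over 9v and for Ttk, Cenpf and Foxm1 in line 13d over 14d. The members' median log2 difference ranged from -0.64 to -0.42 for line 10d over 9v and from 0.70 to 0.98 for line 13d over 14d. Of the counts, members highest in line 9v were 2 after averaging probe sets. With median centring, which shifted the median of all genes by 0.19 between lines 10d and 9v, 3 members were lower by 2-fold or more in line 10d against 9v and members lowest in line 10d were 11, and all genes beyond 2-fold were 708 lower and 1039 higher instead of 915 and 717. The count of 30 members with both bcat* lines lower under the methods' reading was then 26. With quantile normalisation, members with both bcat* lines lower under the labels' reading were 1. At a threshold of 1.5-fold, 21 members were lower and 2 higher in line 10d than in 9v, and 25 were higher in line 13d than in 14d, beside 19.2%, 18.3% and 21.1% of all genes. At 3-fold, 0 were lower in line 10d and 6 were higher in line 13d, beside 4.46% and 4.60%. limma called 281 genes under the labels' reading without the filter on low values, 243 of them below the detection level in every line, and 6 with quantile normalisation and 6 after averaging probe sets. Under the methods' reading it called 71 without the filter, 64 of them below the detection level. Leaving out each line in turn left the limma count at 0 genes and 0 members under both readings. Values near the detection level have no replicate check.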
